A study of Pan troglodytes with 50 samples.

Results

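Reporter activity was measured for 64 oligos from 15 human accelerated regions (HARs) on human chromosome 14, out of 2440 elements in the HAR library. HARs are sequences conserved among vertebrates that gained an excess of substitutions on the human lineage. The oligos were chosen by the human (GRCh37) coordinates in their names: every human or chimpanzee allele between 33 and 38 Mb or between 78 and 81 Mb, leaving out variants that mix bases of both species. They form 32 human and chimpanzee pairs out of 839. In 33 to 35 Mb, around the gene NPAS3, lie 48 oligos of 11 HARs. In 35 to 38 Mb, the area of NKX2-1, lie 14 oligos of 3 HARs (2xHAR.428, 2xHAR.424 and 2xHAR.44), and in 78 to 81 Mb, the area of NRXN3, 2 oligos of 2xHAR.518. 3 HARs were known from these data when the areas were chosen: 2xHAR.142 by its activity, and 2xHAR.424 and 2xHAR.518 by their allele differences in the HAR library. Those values are therefore given as a description, with no test.

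The cells were neural progenitors derived from chimpanzee induced pluripotent stem cells, labelled telencephalon, at stages N2 and N3. The line Pt2A comes from 1 chimpanzee and Pt5C from another, so a difference between lines cannot be told apart from a difference between these animals. In each group cells were plated, infected a day later with a lentiviral library and kept for 4 days, in 3 cultures infected separately. The HAR library was read in Pt2A N2, Pt2A N3, Pt5C N2 and Pt5C N3, and a HAR control library, which repeats these oligos and adds shuffled sequences, in Pt2A N2. All groups received both alleles, and no group was left untreated. Reporter counts carry no marker genes, so the labelled cell type was not checked.

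NPAS3 encodes a transcription factor of the bHLH-PAS class that is active in the developing brain. NKX2-1 encodes a homeodomain transcription factor that patterns the ventral forebrain, and NRXN3 a presynaptic adhesion protein. An enhancer is DNA that raises transcription from a promoter, often over a long distance and in some cell types only. In a lentiviral reporter assay a candidate sequence sits beside a minimal promoter in an integrated copy, and each candidate is tagged by many short barcodes that appear in the transcript. RNA counts of its barcodes over their DNA counts measure the activity of the sequence. 2xHAR.142 lies in an intron of NPAS3. For the other HARs no GRCh37 gene annotation was used here, so exon, intron and nearest gene are not assigned, and the gene names above mark areas, not targets.

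Oligo sequences were read from the deposited tables for shuffled HARs, in which the bases of a HAR were put in another order, and 4 of the 15 HARs had a shuffled form there. The shuffled forms of 2xHAR.518 and 2xHAR.142 are shown because the native alleles differed from them, in opposite directions. Each has 171 bases, 5′ to 3′, with ACAAT or its complement ATTGT, the core recognised by SOX factors of neural progenitors, in capitals:
Shuffled 2xHAR.518: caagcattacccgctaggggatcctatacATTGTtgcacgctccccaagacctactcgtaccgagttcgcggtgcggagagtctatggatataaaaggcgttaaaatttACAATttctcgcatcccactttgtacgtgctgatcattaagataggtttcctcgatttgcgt
Shuffled 2xHAR.142: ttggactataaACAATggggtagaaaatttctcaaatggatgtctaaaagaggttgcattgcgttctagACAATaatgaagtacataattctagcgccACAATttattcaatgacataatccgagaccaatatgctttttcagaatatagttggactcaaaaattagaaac
The first holds 2 matches and the second 3, and 43.3% of the 150 shuffled sequences hold at least 1. The GC content is 46.2% and 32.7%. Native sequences were not used here, but the variant names of 2xHAR.142 give its human differences. They are A90G, C91T, G125T, T134C, A135G, T148C and A149G, with the chimpanzee base first, the position as counted in the names, and the human base last. Both tested alleles of 2xHAR.142 also carry a designed change at base 103 that removes a cloning site.

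Members carried 67 to 98 barcodes each, with a median of 84. Counts per member ran from 868 to 15466 in a DNA library and from 786 to 38478 in an RNA library, and total counts per library from 6641422 to 16823119 (DNA) and from 5410033 to 41867492 (RNA) in the HAR library. Activity is given as log2 RNA over DNA with 0 at the median of 120 negative control elements, and as mean ± SD over 3 cultures unless stated. The control library used the same barcodes for members (5300 of 5381), so it repeats the infection and not the barcoded copies. A single group stood apart. Over the 64 members, the activities of Pt2A N3, Pt5C N2 and Pt5C N3 correlated with the control library at Pearson's r = 0.742, 0.829 and 0.808. That of Pt2A N2, the same line and stage as the control library, did at 0.280, and at 0.853 once its RNA was set over the N3 DNA of the line. These correlations share barcodes and sequences and are descriptive. Over all 2440 elements these values were 0.743, 0.794 and 0.881 for the 3 groups, and −0.109 for Pt2A N2, or 0.587 with N3 DNA. Setting RNA over N3 DNA turned the sign of 24 of the 64 members in Pt2A N2, and 4 of these were called in both settings. The share of all elements that turned was not taken.

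Members lay on both sides of the negative controls, and most lay close to them. In Pt2A N2, 16 of 64 were called higher and 21 lower by edgeR at an adjusted p under 0.05 (background over all elements 27.4% and 33.9%). In Pt2A N3 the counts were 16 and 18 (background 36.9% and 28.5%), in Pt5C N2 15 and 23 (31.8% and 27%), and in Pt5C N3 19 and 31 (37.6% and 35.7%). Without replicate 2 of Pt5C N2, 9 were called higher there, and without its replicate 1, 15 lower. The median activity of members was −0.047 in Pt5C N3, beside 0.0079 over all elements. In the control library 33 were higher and 23 lower (52.9% and 33.3%), with a median of 0.068 beside 0.067. With the spread between barcodes as error, 21, 18, 16 and 28 members were called in either direction in Pt2A N2, Pt2A N3, Pt5C N2 and Pt5C N3. The share over all elements was not taken for this error, so these counts have no background. The chimpanzee alleles of 2xHAR.518 and of 2xHAR.424 tile 1 were higher in all 4 groups (background 9.59%), and 6 members were lower in all 4 (8.16%). These 6 include both alleles of 2xHAR.142, which was chosen by its activity. Another 18 were higher in at least 1 group and lower in another (background not taken). The share of members called higher was under the background in each of these 5 comparisons, and the share called lower was above it in Pt5C N2, Pt5C N3 and the control library. These differences from the background were not tested. The counts of lower members in the HAR library include both alleles of 2xHAR.142 in each group, and so hold values known when the areas were chosen.

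2xHAR.518 (chr14:80280283-80280453) was the most active member, and its chimpanzee allele exceeded its human allele in all 12 cultures of the HAR library. The chimpanzee allele read 0.71, 0.79 and 0.84 in the cultures of Pt2A N2, 0.24, 0.36 and 0.36 in Pt2A N3, 0.36, 0.37 and 0.27 in Pt5C N2 and 0.41, 0.37 and 0.46 in Pt5C N3. The human allele read 0.22, 0.21 and 0.29, then 0.00050, 0.13 and 0.028, then 0.059, 0.048 and 0.019, and 0.045, 0.025 and 0.091 in the same groups. The human allele had its highest values in Pt2A N2, where N3 DNA gave 0.29 ± 0.022 for it and 0.74 ± 0.035 for the chimpanzee allele. With N3 DNA the human allele gave −0.10 ± 0.016 in Pt5C N2. With the DNA of each stage, in no group did cultures of the alleles overlap. The human allele minus the chimpanzee allele gave −0.54 ± 0.043, −0.27 ± 0.059, −0.29 ± 0.037 and −0.36 ± 0.013 in this order of groups, the measure on which the pair was chosen.

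In the control library, whose infection was not used in that choice, the chimpanzee allele read 1.60, 1.66 and 1.64 and the human allele 0.81, 0.86 and 0.84. Both alleles were more active there than in any group of the HAR library, though the zero of each library is set by its own negative controls. The human allele was lower in 3 of 3 cultures, with a difference of −0.79 ± 0.0085 (adjusted p = 1.13e-38 by edgeR and 1.82e-17 by the barcode test, 95% interval over barcodes −0.94 to −0.64). Members had nearly the same barcodes in both libraries (5300 of 5381). These values therefore repeat the infection, and not the barcodes on which the pair was chosen. Quartiles were taken over barcodes with at least 10 DNA counts. Those of the alleles overlapped in Pt2A N3, Pt5C N2 and Pt5C N3 of the HAR library, but not in Pt2A N2. In the control library the difference was spread over the barcodes: the quartiles ran from 1.29 to 1.86 for the chimpanzee allele (82 barcodes) and from 0.44 to 0.98 for the human allele (75 barcodes), which do not overlap. The barcode with the most RNA was tccgttgaccgacgc for the chimpanzee allele, with 5039 RNA and 626 DNA counts (6.49% of the RNA and 6.27% of the DNA). For the human allele it was catcgcggttccgtt, with 2596 and 416 counts (7.79% and 5.6%).

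2xHAR.424 (chr14:37504015-37504335) was covered by 3 tiles, and the alleles of its outer tiles, which share 21 bases, differed in opposite directions. At tile 3 (chr14:37504165-37504335) the human allele read 0.054, 0.042 and 0.14 in Pt2A N2, 0.051, 0.12 and 0.041 in Pt2A N3, 0.27, 0.32 and 0.080 in Pt5C N2 and 0.59, 0.59 and 0.60 in Pt5C N3. The chimpanzee allele read −0.053, 0.0084 and 0.021, then −0.074, −0.030 and 0.0016, then 0.0098, −0.0077 and 0.011, and 0.028, 0.12 and 0.15. The human allele was thus high in Pt5C, most in N3, and near the negative controls in Pt2A. In Pt5C N2 the replicate 3 culture, at 0.080, lay well below the other two. The human minus chimpanzee difference was 0.087 ± 0.047 in Pt2A N2, 0.10 ± 0.057 in Pt2A N3, 0.22 ± 0.13 in Pt5C N2 and 0.50 ± 0.060 in Pt5C N3.

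Tile 1 (chr14:37504015-37504185) showed the reverse order. Its chimpanzee allele read 0.19, 0.23 and 0.23 in Pt2A N2, 0.12, 0.14 and 0.13 in Pt2A N3, 0.27, 0.25 and 0.14 in Pt5C N2 and 0.21, 0.21 and 0.21 in Pt5C N3, above the negative controls in each of the 12 cultures. Its human allele read −0.056, −0.054 and 0.0027, then −0.035, 0.036 and 0.0018, then −0.092, −0.055 and −0.081, and −0.10, −0.036 and −0.091. The difference was −0.24 in the mean of the groups, with the human allele lower in 12 of 12 cultures. It was called in none of the 4 groups nor in their mean, where the adjusted p of the barcode test was 0.148. In Pt2A N2, N3 DNA gave 0.12 ± 0.028 for the chimpanzee and −0.077 ± 0.019 for the human allele. The 12 cultures share barcodes. For the chimpanzee allele, barcodes with at least 10 DNA counts had medians of 0.055, 0.013, 0.083 and 0.024 in Pt2A N2, Pt2A N3, Pt5C N2 and Pt5C N3. Of them 57.3%, 51.7%, 62.2% and 54.5% lay above 0. The strongest barcode held 9.01% to 10.7% of the RNA of this allele, and the strongest 5 held 27.2% to 30.5%.

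Both outer tiles were tested in the control library, on nearly the same barcodes as in the HAR library, so the p-values here are not from new barcodes. At tile 3 the human allele read 0.59, 0.51 and 0.55 and the chimpanzee allele 0.14, 0.087 and 0.22, and the human allele was higher in 3 of 3 cultures, with a difference of 0.40 ± 0.066 (adjusted p = 2e-15 by edgeR and 6.45e-06 by the barcode test). At tile 1 the human allele read −0.15, −0.13 and −0.050 and the chimpanzee allele 0.30, 0.28 and 0.33, and the human allele was lower in 3 of 3, with a difference of −0.41 ± 0.039 (adjusted p = 7.69e-25 by edgeR and 4.19e-06 by the barcode test). The control library thus showed a high human tile 3 in Pt2A N2, where the HAR library, in the same line and stage, gave 0.079 ± 0.053, or 0.070 ± 0.018 with N3 DNA. The reason for this gap between infections was not tested. The middle tile, which holds 96 bases of each neighbour, was not called in the control library: its human and chimpanzee alleles gave 0.13 ± 0.031 and 0.10 ± 0.017, with an interval of the difference of −0.10 to 0.15.

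2xHAR.142 (chr14:34048648-34048818) lay below the negative controls in every culture of the HAR library. The human allele read −0.12, −0.10 and −0.090 in Pt2A N2, −0.24, −0.20 and −0.22 in Pt2A N3, −0.087, −0.12 and −0.11 in Pt5C N2 and −0.21, −0.18 and −0.20 in Pt5C N3. The chimpanzee allele read −0.12, −0.11 and −0.036, then −0.19, −0.17 and −0.16, then −0.13, −0.11 and −0.13, and −0.16, −0.16 and −0.17. The control library gave −0.26, −0.23 and −0.26 for the human allele (adjusted p = 2.71e-35, edgeR) and −0.25, −0.20 and −0.21 for the chimpanzee allele (adjusted p = 3.16e-29, edgeR). It read nearly the same barcodes as those on which this HAR was chosen by its activity. These p-values are therefore not from new barcodes and leave out the spread between barcodes. No difference between the alleles was called: it was −0.020 in the mean of the 4 groups, with an interval over barcodes of −0.10 to 0.063, and −0.032 (−0.12 to 0.054) in the control library. Another library, read in Pt2A and sharing 0 barcodes with the HAR library, holds all 128 combinations of the 7 human and chimpanzee bases. There the all-human and all-chimpanzee forms gave −0.068 ± 0.011 and −0.12 ± 0.037 in N2, and −0.053 ± 0.019 and −0.073 ± 0.011 in N3. The whole set of 128 ran from −0.21 to 0.069 in N2 and from −0.14 to 0.074 in N3.

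Shuffled forms showed how the native order of bases differed from the same bases rearranged. Over the 150 shuffled sequences of the control library, activity ran from −0.24 to 0.85 with a median of 0.17. Shuffled 2xHAR.142 read 0.24, 0.17 and 0.24. Native 2xHAR.142 minus shuffled gave −0.47 (95% interval over barcodes −0.56 to −0.37) for the human allele and −0.43 (95% interval over barcodes −0.51 to −0.35) for the chimpanzee allele. Shuffled 2xHAR.518 read 0.50, 0.45 and 0.49. Native 2xHAR.518 minus shuffled gave 0.36 (95% interval over barcodes 0.23 to 0.49) for the human allele and 1.15 (95% interval over barcodes 1.05 to 1.25) for the chimpanzee allele. These 4 differences passed both tests (largest adjusted p 1.26e-06, barcode test, for the human allele of 2xHAR.518). Both HARs were chosen from their values in the HAR library, on nearly the same barcodes. The p-values are therefore not independent of that choice. Native alleles passed as higher for 27.3% of 150 human and 24.8% of 129 chimpanzee HARs, and as lower for 38% and 39.5%. HAR21 and 2xHAR.428 were not called against their shuffled forms: the intervals of the human alleles were −0.18 to 0.030 and −0.12 to 0.15. For these HARs the native and shuffled means were 0.22 and 0.30, and −0.091 and −0.11.

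Around NPAS3 the highest activity of the control library was at HAR189 tile 1 (chr14:33488792-33488962), where the human allele read 0.52, 0.43 and 0.53 and the chimpanzee allele 0.52, 0.47 and 0.59 (adjusted p = 1.34e-56 and 5.69e-48, edgeR). In the HAR library the human allele read 0.15, 0.10 and 0.17 in Pt2A N3, 0.20, 0.095 and −0.065 in Pt5C N2 and 0.20, 0.28 and 0.31 in Pt5C N3, and −0.52, −0.64 and −0.39 in Pt2A N2. The low values of Pt2A N2 were those over its own DNA libraries: over N3 DNA the mean there was 0.065 ± 0.040, and 0.11 ± 0.034 for the chimpanzee allele, which read −0.50 ± 0.15 over N2 DNA. Alleles of HAR202 (chr14:34045569-34045772; 0.31 to 0.41 in the control library over 4 oligos), HAR173 (chr14:33760832-33761002; 0.29 for both alleles) and HAR21 (chr14:33526916-33527086; 0.22 to 0.25) were all called higher there. Over their own DNA in Pt2A N2 the 6 oligos of HAR202 and HAR173 were instead all called lower, and over N3 DNA none of them passed.

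The lowest members by mean over the 4 groups were neighbours in the NPAS3 area. The human allele of 2xHAR.122 tile 1 (chr14:34261808-34261978) read −0.17, −0.17 and −0.18 in Pt2A N2, −0.19, −0.17 and −0.24 in Pt2A N3, −0.17, −0.13 and −0.20 in Pt5C N2 and −0.29, −0.25 and −0.26 in Pt5C N3. It was below 0 in all 12 cultures, with a mean of −0.20 ± 0.048 (SD, n = 12). At 2xHAR.157 tile 1 (chr14:34160096-34160266) the chimpanzee allele read −0.091, −0.032 and −0.028, then −0.22, −0.18 and −0.19, then −0.24, −0.14 and −0.15, and −0.33, −0.24 and −0.36 in the same order of groups. Its human allele read −0.13, −0.11 and −0.12, then −0.075, −0.22 and −0.17, then −0.21, −0.21 and −0.19, and −0.12, −0.21 and −0.24. In Pt2A N2 the chimpanzee allele gave −0.17 ± 0.018 with N3 DNA (adjusted p = 1.55e-05) and was not called over N2 DNA, and in Pt5C N2 it gave −0.28 ± 0.036. All 6 oligos of 2xHAR.157 were called lower in the control library, at −0.33 to −0.18.

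Near NKX2-1, 2xHAR.44 tile 1 (chr14:37608255-37608425) was active in both alleles in the control library. Its human allele, among the 3 highest members by mean, read 0.019, −0.0075 and 0.10 in Pt2A N2, 0.25, 0.20 and 0.25 in Pt2A N3, 0.15, 0.21 and 0.17 in Pt5C N2 and 0.36, 0.37 and 0.37 in Pt5C N3. The cultures of Pt5C N3 were the highest and those of Pt2A N2 the lowest, with no overlap between these groups. With N3 DNA the human allele gave 0.11 ± 0.020 in Pt2A N2 (adjusted p = 0.0192) and 0.27 ± 0.027 in Pt5C N2. The control library gave 0.42 ± 0.038 for the human and 0.46 ± 0.059 for the chimpanzee allele. Tile 2 of 2xHAR.44 was also called higher there in both alleles, at 0.24 for human and 0.17 for chimpanzee. Tile 3 was called lower in both, at −0.069 and −0.14. Over all 6 oligos of this HAR the control library ran from −0.14 to 0.46, with 4 called higher and 2 lower. 2xHAR.428 (chr14:36661674-36661844) ran from −0.10 to 0.14 over its alleles and groups of the HAR library, and both alleles were called lower in the control library.

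2xHAR.223 (chr14:34130321-34131118), the longest of the HARs, was covered by 6 tiles, of which tiles 3 and 4 share 168 of 171 bases and differ in their barcodes. They give a measure of how far nearly the same sequence can differ. Tile 3 exceeded tile 4 in 12 of 12 cultures for the human allele, by 0.20 ± 0.066, and in 12 of 12 for the chimpanzee allele, by 0.15 ± 0.056. In the control library the differences were 0.19 ± 0.043 and 0.044 ± 0.045. Over barcodes the human difference had an adjusted p of 0.0416 (barcode test, 12 comparisons) in the mean of the groups and of 0.0416 in the control library. For the chimpanzee difference these were 0.173 and 0.675. Whether the 3 bases or the barcodes set this difference was not tested. The SD over cultures was 0.066 while the standard error over barcodes was 0.079, so allele differences of this size are read here only with the barcode test.

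The remaining oligos are given by the range of their HAR. Group means in the HAR library ran from −0.13 to 0.14 for HAR144 (chr14:33203403-33203606), −0.13 to 0.083 for HAR96 (chr14:33417004-33417239) and −0.12 to 0.079 for HAR89 (chr14:34065558-34065810), with 4 oligos each. They ran from −0.22 to 0.20 for the 12 oligos of 2xHAR.223, −0.31 to 0.13 for the 6 of 2xHAR.157 and −0.27 to 0.078 for the 4 of 2xHAR.122. In the control library HAR144 ran from −0.095 to 0.17, HAR96 from −0.020 to 0.11 and HAR89 from −0.017 to 0.12.

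The stages were compared within each line. From N2 to N3 in Pt2A, 14 members rose and 23 fell at an adjusted p under 0.05 (edgeR, background over all elements 32.4% and 34.9%). The human allele of HAR189 tile 1 rose most, from −0.51 ± 0.12 to 0.12 ± 0.033, a difference of 0.64 (adjusted p = 1.9e-09). Its chimpanzee allele differed by 0.58 (adjusted p = 4.39e-07) and the human allele of HAR202 tile 2 by 0.34 (adjusted p = 2.02e-06). With N3 DNA for both stages these became 0.045 (adjusted p = 0.359), −0.039 (adjusted p = 0.54) and 0.10 (adjusted p = 0.00993). The chimpanzee allele of 2xHAR.518 fell most, from 0.79 ± 0.053 to 0.30 ± 0.063, a difference of −0.48, and of −0.46 with N3 DNA, given as a description. The human allele of 2xHAR.223 tile 2 and the chimpanzee allele of tile 1 differed by −0.30 (adjusted p = 2.33e-07) and −0.26 (adjusted p = 4.34e-07), and by −0.14 (adjusted p = 1.7e-05) and −0.17 (adjusted p = 2.95e-07) with N3 DNA. Over N3 DNA 33 members passed, 18 higher and 15 lower, of which 22 had passed with the same sign over the DNA of each stage. The share over all elements was not taken for calls over N3 DNA, so these counts have no background.

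In Pt5C, 3 members rose and 8 fell from N2 to N3 (background 12.3% and 5.08%). With N3 DNA for both stages 5 rose and 6 fell (background not taken), and 5 of the 11 calls were made again with the same sign. Both alleles of 2xHAR.518 were among the 5 that rose then, by 0.16 for chimpanzee and 0.14 for human, as a description. The human allele of 2xHAR.424 tile 3, whose high values in Pt5C were in view when it was chosen, went from 0.22 ± 0.12 to 0.59 ± 0.0050, a difference of 0.37 over either DNA. The other two that rose were the alleles of 2xHAR.44 tile 1, by 0.29 (adjusted p = 0.000468) for chimpanzee and 0.20 (adjusted p = 0.00709) for human. With N3 DNA they differed by 0.15 (adjusted p = 0.00553) and 0.091 (adjusted p = 0.0638). The largest falls were the chimpanzee alleles of 2xHAR.157 tile 3 and tile 1 and of 2xHAR.223 tile 1, with differences of −0.15 (adjusted p = 0.0123), −0.13 (adjusted p = 0.0273) and −0.10 (adjusted p = 0.0449), and none of these 3 passed with N3 DNA. Without replicate 3 of Pt5C N2 there were 5 calls in all, and without replicate 2 of Pt5C N3 there were 6. Without replicate 3 of Pt5C N3, 5 fell, and without replicate 2 of Pt5C N2, 5 rose. With total counts in place of TMM factors 3 rose and 21 fell.

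The lines were compared within each stage. At N3, 9 members were higher and 9 lower in Pt5C than in Pt2A (background 13.4% and 9.51%). The human allele of 2xHAR.424 tile 3 went from 0.050 ± 0.044 to 0.59 ± 0.0050, a difference of 0.54, and no culture overlapped, again as a description. With total counts in place of TMM factors 7 members were higher and 14 lower. The next largest were the human allele of 2xHAR.223 tile 6, with 0.19 (adjusted p = 0.00277), and the chimpanzee allele of HAR96 tile 1, with 0.17 (adjusted p = 0.0035). Lower in Pt5C were the human alleles of 2xHAR.44 tile 3, −0.14 (adjusted p = 0.00121), 2xHAR.223 tile 4, −0.14 (adjusted p = 0.00831), and 2xHAR.157 tile 2, −0.13 (adjusted p = 0.00277). At N2, where Pt2A stood apart, 16 were higher and 26 lower in Pt5C (background 29.6% and 29.7%). With N3 DNA 27 members passed, 13 higher and 14 lower (background not taken), and for 7 of the 42 calls the sign of the estimate changed. The alleles of 2xHAR.518 were lower in Pt5C over either DNA: the chimpanzee allele differed by −0.46 and −0.52, and the human allele by −0.22 and −0.40. The human and chimpanzee alleles of HAR189 tile 1 were higher by 0.57 (adjusted p = 3.74e-08) and 0.61 (adjusted p = 2.35e-07), and differed by 0.13 (adjusted p = 0.139) and 0.14 (adjusted p = 0.201) over N3 DNA. The human allele of HAR202 tile 1 was higher, with 0.31 (adjusted p = 4.44e-06), and the chimpanzee allele of 2xHAR.157 tile 2 lower, with −0.19 (adjusted p = 2.12e-06).

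Allele differences were called for none of the HARs around NPAS3. A pair was called where edgeR and the barcode test both passed with the same sign. In the HAR library 2xHAR.518 met this in all 4 groups and 2xHAR.424 tile 3 in both Pt5C groups, so 1, 1, 2 and 2 of 32 pairs were called in Pt2A N2, Pt2A N3, Pt5C N2 and Pt5C N3 (background 5.36%, 2.5%, 3.22% and 2.86%), which restates how the areas were chosen. Without replicate 1 or replicate 2 of Pt5C N2, 1 pair was called there. In the control library 3 of 32 were called (background 15.3%): 2xHAR.518 and tiles 1 and 3 of 2xHAR.424. The 29 other pairs there differed by −0.21 to 0.23, and for 23 of all 32 the 95% interval over barcodes lay within ±0.25. In the mean of the 4 groups 2 pairs were called, 2xHAR.518 and 2xHAR.424 tile 3 (background 1.55%), which again restates how the areas were chosen. By edgeR alone 7, 11, 7 and 10 pairs passed in Pt2A N2, Pt2A N3, Pt5C N2 and Pt5C N3 (background 29.3%, 29.8%, 26.3% and 31.7%), 21 in their mean (54.6%) and 11 in the control library (47.6%). The median absolute difference of members was 0.059 in the control library, beside 0.078 over all 839 pairs. Activities of the alleles correlated over the 32 pairs at r = 0.841 in the control library and 0.558 in the mean of the 4 groups, a description over pairs that share most of their sequence.

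Whether allele differences changed with stage or line was tested directly for the pairs not chosen on them. At 2xHAR.223 tile 3 the human minus chimpanzee difference was 0.041, 0.020 and −0.091 in the cultures of Pt2A N2 and 0.13, 0.20 and 0.13 in those of Pt5C N2, a change of 0.16 (adjusted p = 0.0366 by edgeR and 0.0483 by the barcode test). At HAR89 tile 2 it was −0.12, −0.14 and −0.16 and 0.037, −0.088 and 0.0036, a change of 0.12 (adjusted p = 0.0445 by edgeR and 0.0483 by the barcode test). At 2xHAR.223 tile 4 it was −0.051, −0.047 and 0.0087 in Pt2A N2 and 0.10, 0.29 and 0.026 in Pt2A N3, a change of 0.17 (adjusted p = 0.0197 by edgeR and 0.016 by the barcode test). Each involves Pt2A N2, and with N3 DNA the changes were −0.044, 0.039 and −0.039, none of them called. Of all pairs 8.22% were called by line at N2, 12.8% by stage in Pt2A, 2.86% by line at N3 and 0.119% by stage in Pt5C, and by edgeR alone 8.34%, 14.2%, 3.22% and 0.119%. The members called numbered 3, 2, 1 and 0, with 2xHAR.518 counted in the first and second and 2xHAR.424 tile 3 in the third. By line at N2, 1 pair was called without replicate 2 or 3 of Pt2A N2 or replicate 1 of Pt5C N2. By stage in Pt2A, 1 was called without replicate 2 of Pt2A N2 or of Pt2A N3, and by line at N3, 2 were called without replicate 3 of Pt2A N3 or replicate 1 of Pt5C N3. By stage in Pt5C edgeR alone called 0, DESeq2 called 1, 4 pairs had an unadjusted barcode p under 0.05, and 1 pair was called without replicate 2 of Pt5C N2. For 2xHAR.518, as a description, the difference was smaller by 0.27 in Pt2A N3 than in Pt2A N2 (standard error over barcodes 0.048), and by 0.18 over N3 DNA. For 2xHAR.424 tile 3 it was larger by 0.40 in Pt5C N3 than in Pt2A N3 (standard error 0.068).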

How the data were processed

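Each deposited table lists barcodes of 15 bases, the element each one tags and a whole-number count, as the authors made it. A molecular identifier of 10 bases was added, per the labels' protocols. The tables do not say if a count is of identifiers or of reads, so intervals cover counting and barcode spread alone. The submitters' processing notes name GRCh37, to which the coordinates in element names refer. Aligner and barcode assignment: not given in the sources used here.

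For each element the barcode counts were added up (elements averaging under 10 barcodes in the DNA libraries were left out) and tested by edgeR 4.0.16 in R 4.3.3, quasi-likelihood with TMM factors, 1 fit per library, two-sided, with Benjamini-Hochberg adjustment over all elements or pairs and a threshold of 0.05. Stage and line contrasts are centred by TMM. Values of a culture set its RNA over the DNA with its number, adding 0.5 to each count. Cultures share barcodes, so allele and shuffled differences also needed a barcode test: the difference of log ratios of sums over its standard error between barcodes. Intervals are 95%. Both tests were tested on simulated data. There the barcode test called 39 of 100 pairs given a log2 difference of 0.5, and 96 of 100 given a difference of 1. No simulated allele difference changed between groups, so the contrasts of such changes were checked for false calls only. Alternatives used DESeq2 1.42.0, other scalings, a replicate block, N3 DNA, and left-out barcodes or cultures. Other steps used Python 3.11.15, pandas 2.3.3 and scipy 1.17.1.

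The members and lists were chosen with earlier results of these data known. Values per culture are given for 2xHAR.142, 2xHAR.424 and 2xHAR.518, for called pairs, and for the 3 highest and 3 lowest members by mean over the 4 groups. In stage and line contrasts the text names up to 3 calls in each direction, by size. The comparisons with shuffled forms, of tiles 3 and 4 of 2xHAR.223 and the values of the 2xHAR.142 combinations were added after seeing the files, and HAR189, HAR202, HAR173 and HAR21 were named after their values were seen. ChIP-seq peak lists were not used here.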

Additional observations from a re-analysis of the deposited data

Results flagged for a closer look

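Allele differences (human minus chimpanzee) that changed between groups were singled out by the test of the change itself. Between Pt2A and Pt5C at N2 the changes were 0.25 at 2xHAR.518, 0.16 at 2xHAR.223 tile 3 and 0.12 at HAR89 tile 2. Between N2 and N3 in Pt2A they were 0.27 at 2xHAR.518 and 0.17 at 2xHAR.223 tile 4. These 5 values involve Pt2A N2. Between Pt2A and Pt5C at N3 the change was 0.40 at 2xHAR.424 tile 3. For 2xHAR.518 and 2xHAR.424 the allele difference itself was known when the areas were chosen, so their changes are descriptions.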

How the results depend on the processing

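Counts called in either direction fell most with the spread between barcodes as error: from 37 to 21 in Pt2A N2, 34 to 18 in Pt2A N3, 38 to 16 in Pt5C N2 and 50 to 28 in Pt5C N3. N3 DNA reduced the line calls at N2 from 42 to 27 and moved the calls of Pt2A N2 to 8 higher and 29 lower. In Pt2A N2 it turned the sign of activity of 24 of 64 members, 4 of them called over either DNA, and in Pt5C N2 of 7. Shares over all elements were not taken for the counts with barcode spread as error or with N3 DNA. Turned values include HAR189 tile 1 (0.10 chimpanzee, 0.062 human), HAR202 tile 2 human (0.0052) and 2xHAR.44 tile 1 chimpanzee (0.12) in Pt2A N2, 2xHAR.518 human in Pt5C N2 (−0.096), and the allele changes at 2xHAR.223 tile 3 by line (−0.044) and tile 4 by stage (−0.039). The stage calls in Pt5C went from 11 to 24 with total counts and to between 5 and 12 with 1 culture left out. By edgeR alone the pairs called were 7 in Pt2A N2, 11 in Pt2A N3, 7 in Pt5C N2, 10 in Pt5C N3, 21 in the mean and 11 in the control library. By both tests the pairs called in the control library rose from 3 to 5 without the strongest barcodes. Leaving out 1 culture gave 1 to 3 pairs in Pt5C N2. Allele changes by line at N2 fell from 3 to 0 with N3 DNA, 1 with the replicate block, 1 without the strongest barcodes and 1 to 2 with 1 culture left out. By line at N3 they rose from 1 to 3 with DESeq2, 3 with total counts, 2 with the replicate block, and were 1 to 2 with 1 culture left out. By stage in Pt2A the 2 calls became 4 by edgeR alone and 1 to 3 with 1 culture left out. By stage in Pt5C the 0 calls became 1 with DESeq2, total counts, the replicate block or N3 DNA, and 0 to 1 with 1 culture left out. The causes were not tested.

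RNA and DNA with the same replicate number did not deviate together from their group means: the correlation of deviations was −0.136 to 0.08 in the HAR library. This cannot show whether they came from the same culture, since libraries of 1 culture need not share deviations. Of counts recomputed under alternatives, 231 stayed within 1.5 times and 36 did not, and of values of single members and counts in 1 direction 2095 kept direction and side of the threshold, 42 lost their call, 51 gained one and 7 changed sign. Of counts in 1 direction, 19 moved by over 1.5 times. Alternatives for the 2xHAR.142 combinations were not run. Cultures of a group share 1 line and 1 barcoded library, so edgeR p-values cover the spread between infections. Those of the barcode test cover the spread between barcodes and not that between infections. The 67 to 98 barcodes per allele limit allele differences to a median standard error of 0.067 in the control library.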
